A study of Mus musculus with 9 samples.

Results

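The clade B serpins described here were 10 Serpinb genes of the mouse: Serpinb1a, Serpinb1b, Serpinb1c, Serpinb5, Serpinb6a, Serpinb6b, Serpinb6c, Serpinb8, Serpinb9 and Serpinb9b. They were taken as the non-control array probes whose transcript accession belongs to 1 of these symbols, which gave 11 probes of the 55681 on the array and 10 of its 20660 gene symbols. Earlier results of these arrays were in view when the 10 genes were chosen. Their differences between groups are therefore given as a description, with no p-value.

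The cells were J1, an established mouse embryonic stem cell line of strain 129S4/SvJae derived from the inner cell mass. All groups grew on gelatin in serum replacement medium to which LIF, a cytokine that keeps such cells undifferentiated, was added at 1000 U/mL. For 24 h, cells received the solvent DMSO, 3 µM CHIR99021 (an inhibitor of the kinase GSK3, whose loss of activity stabilises beta-catenin) or 1 mM AICAR (a nucleoside analogue that activates AMP-activated protein kinase), with 3 arrays a group and 9 in all. Total RNA was labelled with Cy3 and hybridised to single-colour Agilent arrays. The labels number the replicates without saying whether they were separate cultures, so the spread between arrays may be technical. The 3 groups lay on 3 slides, 1 slide a group with its own scan, and slide and treatment cannot be told apart.

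Serpins are protease inhibitors that act as bait: the protease cuts an exposed reactive centre loop, the serpin folds around that loop, and the enzyme is trapped in a covalent complex. Clade B members lack a classical secretion signal and mostly work inside the cell, where they limit damage by proteases that leak from granules and lysosomes or arrive from killer cells. In the mouse, the human counterparts SERPINB1, SERPINB6 and SERPINB9 each correspond to several gene copies that lie together on chromosome 13, and a further group lies on chromosome 1. Because such copies resemble each other in sequence, a probe named for 1 copy may also bind the transcripts of another, and no probe sequences were used here to check this.

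To show the stretches from which the most responsive genes are transcribed, the 250 bases before the annotated start are given for 2 of the 10 genes, Serpinb1b and Serpinb1c, and for the neighbouring copies Serpinb6d and Serpinb6e, whose signals rose most among the other tested clade B genes. Sequences and coordinates are from RefSeq on build GRCm38.p6, written 5′ to 3′ on the strand of the gene. Of the 10 genes, 9 had an entry, with 11 entries in all, and Serpinb1a had none. Capitals mark a match to 1 of 4 motifs: CTTTGAT (the core bound by the TCF/LEF partners of beta-catenin), CACGTG (the E-box), AAGGTCA (the core bound by estrogen-related receptors) and TATAAA (the TATA box). All were searched on both strands, and none overlaps another in these windows.
Serpinb1b, chr13:33083853-33084102, plus strand: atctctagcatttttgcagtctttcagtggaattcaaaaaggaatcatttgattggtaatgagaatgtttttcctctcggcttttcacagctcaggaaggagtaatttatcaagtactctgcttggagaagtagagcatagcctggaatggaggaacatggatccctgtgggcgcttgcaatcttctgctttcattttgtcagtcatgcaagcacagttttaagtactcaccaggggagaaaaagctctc
Serpinb1c, chr13:32898141-32898390, minus strand: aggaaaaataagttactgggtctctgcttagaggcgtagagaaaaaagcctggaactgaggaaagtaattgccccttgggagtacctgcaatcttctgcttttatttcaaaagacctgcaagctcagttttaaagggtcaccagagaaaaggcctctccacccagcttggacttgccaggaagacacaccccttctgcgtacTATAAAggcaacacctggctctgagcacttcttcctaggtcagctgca
Serpinb6d, chr13:33661155-33661404, plus strand: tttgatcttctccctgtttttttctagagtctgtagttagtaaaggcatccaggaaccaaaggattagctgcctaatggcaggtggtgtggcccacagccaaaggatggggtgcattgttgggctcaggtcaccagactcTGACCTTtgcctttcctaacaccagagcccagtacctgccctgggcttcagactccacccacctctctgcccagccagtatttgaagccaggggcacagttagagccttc
Serpinb6e, chr13:33843409-33843658, minus strand: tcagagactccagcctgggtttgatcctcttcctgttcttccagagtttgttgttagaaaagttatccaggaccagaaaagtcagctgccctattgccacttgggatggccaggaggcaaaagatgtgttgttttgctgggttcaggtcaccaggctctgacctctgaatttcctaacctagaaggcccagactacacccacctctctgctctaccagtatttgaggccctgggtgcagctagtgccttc
The Serpinb1c window, the first of 2 entries, holds TATAAA 48 bases before the start, and the Serpinb6d window, also the first of 2, holds AAGGTCA on the opposite strand (read as TGACCTT) 110 bases before the start. The windows of Serpinb1b and Serpinb6e hold none of the 4 motifs. Over 32851 windows of the same length, TATAAA was found in 12.4%, CACGTG in 6.02%, AAGGTCA in 4.08% and CTTTGAT in 3.21%. The only other match among the 10 genes was CTTTGAT in the window of Serpinb9b, 151 bases before the start, so that 7 of the 9 genes with an entry had no match.

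Signals are given as log2 of Agilent's processed signal relative to the array's 75th percentile, so 0 is the brightness of a spot at that percentile, and values of different probes are not compared. Agilent's software marks a spot as well above background when its signal clearly exceeds the local and global background. Of the 10 genes, 5 were well above background on all 9 arrays (Serpinb1a, Serpinb5, Serpinb6a, Serpinb6c and Serpinb8), Serpinb1b, Serpinb1c and Serpinb6b on some, and Serpinb9 and Serpinb9b on none. Probes well above background on at least 3 arrays were tested, which kept 7 of the 10 genes. Serpinb1c passed through its treated arrays alone, so that it had to differ from DMSO.

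After CHIR99021, 5 of the 7 tested genes were called higher than in DMSO and 0 lower (Serpinb1a, Serpinb1c, Serpinb6a, Serpinb6c and Serpinb8), at an adjusted p under 0.05 in the limma fit. The same 5 were called higher after AICAR, with 0 lower. The median log2 difference of the 7 was 0.55 after CHIR99021 and 0.38 after AICAR, also with Serpinb1c at its lower bound, against 0.07 and 0.03 over all features tested. Of the 26866 features tested, 51% were called after CHIR99021 (30.4% higher, 20.5% lower) and 60.5% after AICAR (30.9% higher, 29.6% lower). The 2 comparisons share the DMSO arrays. Since the genes were chosen on these contrasts, nothing is read from their count against that background.

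All arrays of the treated group lay above all DMSO arrays for 5 of the 7 tested genes and below them for 0, after CHIR99021 and after AICAR alike. Over all features with 3 values in both groups, 63.3% did not overlap between CHIR99021 and DMSO (37.5% higher, 25.8% lower) and 67.1% between AICAR and DMSO (34.3% higher, 32.8% lower). Between CHIR99021 and AICAR, 1 of the 7 genes was higher and 3 were lower without overlap, against 65.5% of all features (38.8% higher, 26.6% lower).

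**Figure D1:**
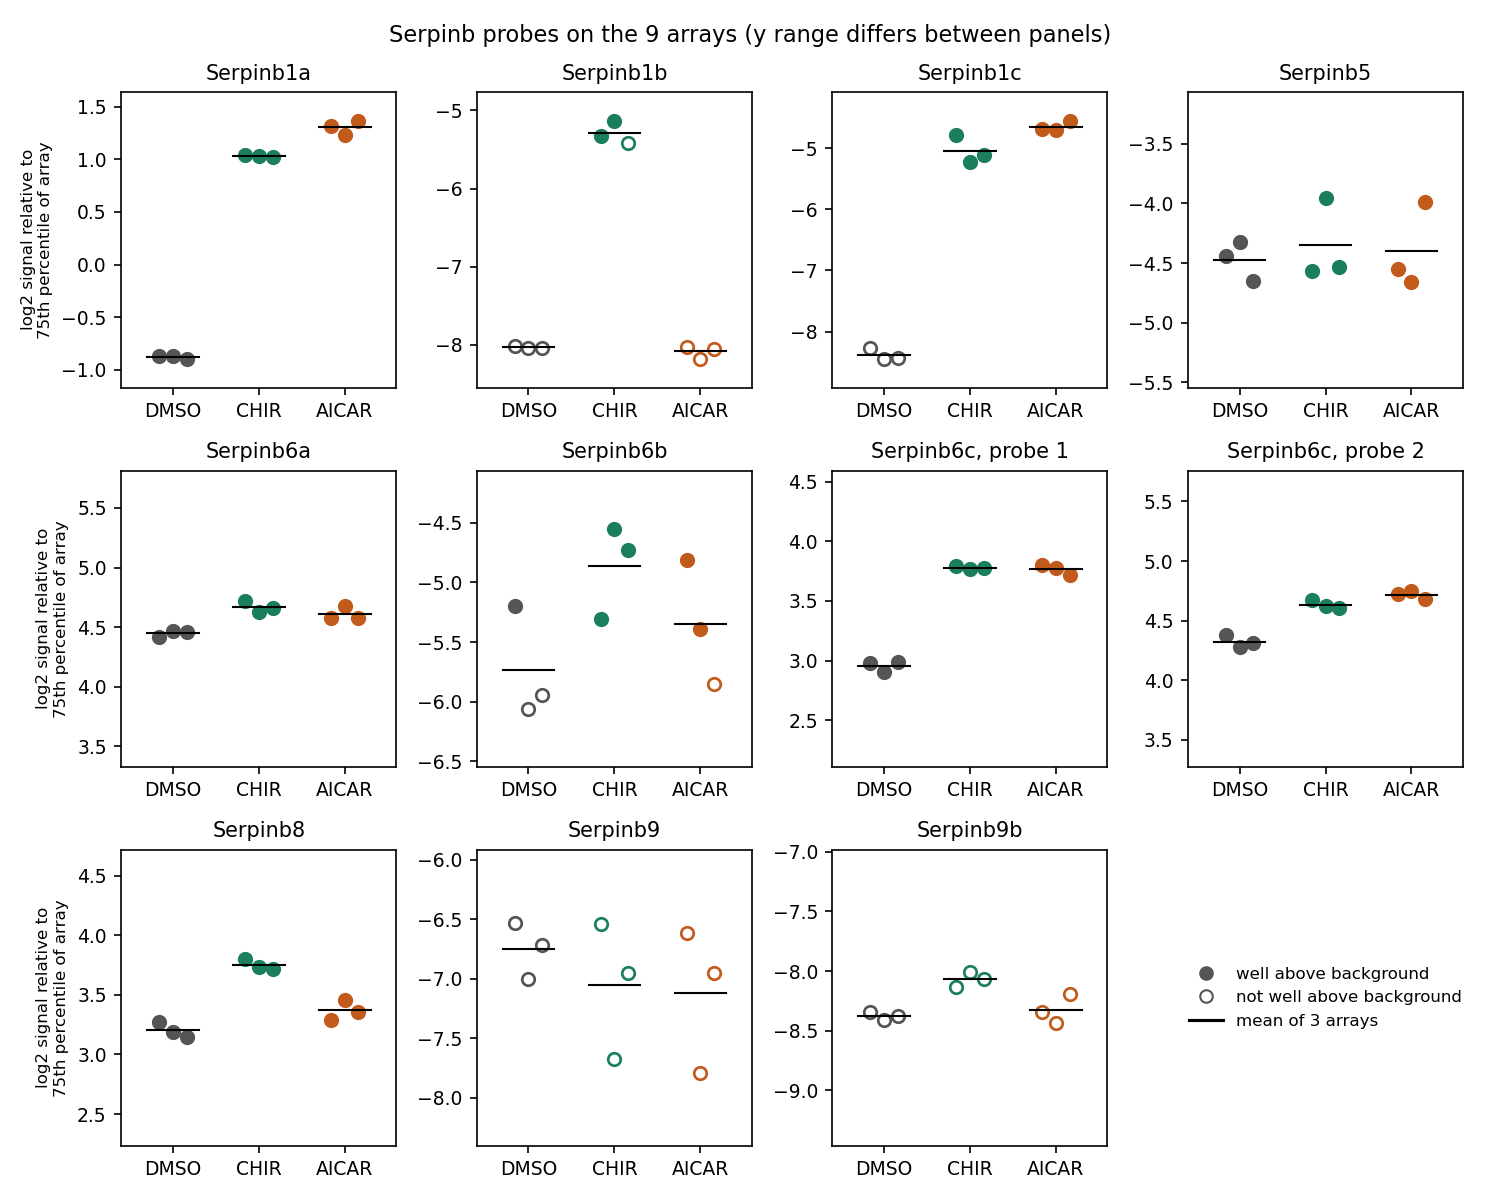
Log2 signal relative to the array's 75th percentile for each of the 11 Serpinb probes on the 9 arrays, by group, with filled points well above background, open points not, and a bar at the mean of 3 arrays. The y range differs between panels. Serpinb1a and Serpinb1c are higher in both treated groups than in DMSO, Serpinb1b in CHIR99021 alone, and Serpinb5 overlaps between all groups.

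Among the Serpinb1 copies, inhibitors of the neutrophil proteases elastase, proteinase 3 and cathepsin G, Serpinb1a was higher in both treated groups. Its DMSO arrays read -0.87, -0.87 and -0.90, its CHIR99021 arrays 1.04, 1.03 and 1.02, and its AICAR arrays 1.32, 1.23 and 1.37. The 3 groups did not overlap, with DMSO lowest, CHIR99021 between and AICAR highest. On the linear scale the processed signal went from 326 to 335 units in DMSO to between 1170 and 1180 with CHIR99021 and between 1380 and 1540 with AICAR. The log2 difference from DMSO was 1.90 ± 0.05 (SE) with CHIR99021, or 3.74-fold, and 2.19 ± 0.05 with AICAR, or 4.55-fold. CHIR99021 lay 0.28 below AICAR (fitted difference -0.28 ± 0.05). More cells carrying a transcript and more of it per cell cannot be told apart in bulk RNA.

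Serpinb1c, a close copy of Serpinb1a, was not well above background on any DMSO array and was so on all 6 treated arrays. Its values were -8.27, -8.45 and -8.44 in DMSO, -4.79, -5.22 and -5.12 with CHIR99021, and -4.68, -4.71 and -4.55 with AICAR. The treated arrays all lay above the DMSO arrays, at processed signals of 15.4 to 24.3 units against 1.74 to 1.98. Because DMSO gives only a bound, each DMSO array was set at its dimmest spot that still stood well above background. On that limit CHIR99021 was at least 2.05-fold higher and AICAR at least 2.70-fold higher. Brighter spots could fail the mark, such as Serpinb6b at -5.94 on DMSO replicate 3, where the dimmest marked spot read -6.107. A stricter limit would give smaller folds, here and for the other genes given as a bound. With another background correction (normexp), the fitted difference was 0.53 after CHIR99021 and 0.54 after AICAR, in place of 3.34 ± 0.11 and 3.74 ± 0.11, and stayed called. Normexp adds an offset of 50 units to every signal, which shrinks the log2 differences of dim probes, here and for the genes below. CHIR99021 and AICAR did not overlap and differed by -0.40 ± 0.11, a call that was lost without CHIR99021 replicate 2 (-0.31), CHIR99021 replicate 3 (-0.36) or AICAR replicate 3 (-0.35), and with normexp (-0.01).

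Serpinb1b, the remaining copy of this group, had a signal in the CHIR99021 arrays alone. Values were -8.01, -8.04 and -8.04 in DMSO, -5.33, -5.13 and -5.41 with CHIR99021, and -8.02, -8.18 and -8.05 with AICAR. All 3 CHIR99021 arrays lay above the other 6, and 2 of the 3 were well above background, which left the probe out of the test. On the same kind of limit, the CHIR99021 mean was at least 1.73-fold higher than DMSO and at least 1.68-fold higher than AICAR. In all, higher without overlap in CHIR99021 than in DMSO was true of 37.5% of all features with 3 values in both groups. Whether the 3 copies differ in their response to the treatments was not tested, and their probes may share transcripts.

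Among the Serpinb6 copies, inhibitors of cathepsin G and related proteases, the bright Serpinb6a probe moved little. It read 4.42, 4.47 and 4.46 in DMSO, 4.72, 4.63 and 4.66 with CHIR99021, and 4.58, 4.68 and 4.58 with AICAR. Both treated groups lay above DMSO and overlapped with each other. The log2 difference was 0.22 ± 0.05 with CHIR99021 (1.17-fold) and 0.17 ± 0.05 with AICAR (1.12-fold). The AICAR call was lost without DMSO replicate 1 (0.15) or AICAR replicate 2 (0.13), with normexp (0.08) and with the replicate block (0.17), and the CHIR99021 call when arrays were scaled on spike-in controls.

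Serpinb6c was measured by 2 probes, both higher in both treated groups but by different amounts. Probe A_55_P2013038 read 2.98, 2.90 and 2.99 in DMSO, 3.79, 3.77 and 3.78 with CHIR99021, and 3.80, 3.78 and 3.72 with AICAR, which is a difference of 0.82 ± 0.05 and 0.81 ± 0.05. Probe A_55_P2047768, the brighter and therefore the tested one, read 4.38, 4.28 and 4.31 in DMSO, 4.67, 4.62 and 4.61 with CHIR99021, and 4.72, 4.75 and 4.68 with AICAR. Its difference was 0.31 ± 0.05 with CHIR99021 and 0.40 ± 0.05 with AICAR. On neither probe did a treated array overlap with DMSO. The CHIR99021 call of the tested probe was lost with spike-in scaling.

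Serpinb6b, a dim copy, did not separate the groups. Its values were -5.20, -6.06 and -5.94 in DMSO, -5.31, -4.55 and -4.73 with CHIR99021, and -4.81, -5.39 and -5.85 with AICAR, and all groups overlapped. It was well above background on 1 DMSO, 3 CHIR99021 and 2 AICAR arrays, and the differences were 0.87 ± 0.33 with CHIR99021 and 0.38 ± 0.33 with AICAR, neither called. The CHIR99021 difference became a call without DMSO replicate 1 (1.13), CHIR99021 replicate 1 (1.09), AICAR replicate 1 (0.87) or AICAR replicate 3 (0.87), and with normexp (0.22).

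Serpinb8, an inhibitor of the proprotein convertase furin and 1 of the 2 genes here on chromosome 1, was higher mainly with CHIR99021. DMSO arrays read 3.27, 3.19 and 3.15, CHIR99021 arrays 3.80, 3.73 and 3.72, and AICAR arrays 3.29, 3.46 and 3.36. CHIR99021 lay above both other groups without overlap, while AICAR lay above DMSO by a margin close to the spread within groups. The differences from DMSO were 0.55 ± 0.06 with CHIR99021 (1.46-fold) and 0.17 ± 0.06 with AICAR (1.12-fold), and CHIR99021 exceeded AICAR by 0.38 ± 0.06. The AICAR call was lost under 11 of 19 alternatives, among them when DMSO replicate 2 (0.16) or DMSO replicate 3 (0.14), any of the CHIR99021 replicates (0.17 each), AICAR replicate 2 (0.12) or AICAR replicate 3 (0.17) was left out. The difference between the treatments was no longer called with spike-in scaling (0.15).

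Serpinb5, or maspin, a clade B protein of epithelia that does not inhibit proteases, lies at the other end of the chromosome 1 run and did not separate the groups. It read -4.44, -4.32 and -4.65 in DMSO, -4.57, -3.95 and -4.53 with CHIR99021, and -4.55, -4.66 and -3.99 with AICAR. All 9 arrays were well above background and the 3 groups overlapped, with 1 higher array in each treated group. The differences of 0.12 ± 0.22 and 0.07 ± 0.22 were not called.

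Serpinb9, the inhibitor of granzyme B that shields killer lymphocytes and some of their targets, was dim on all 9 arrays, well above background on none. Its probe read -6.53, -7.00 and -6.72 in DMSO, -6.54, -7.67 and -6.95 with CHIR99021, and -6.62, -7.79 and -6.95 with AICAR. Serpinb9b, a copy of it, stayed between -8.44 and -8.01 on all 9 arrays, also not well above background. Values this low have no order, and no fold is given for either.

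CHIR99021 and AICAR, compared with each other, differed in 3 of the 7 tested genes: Serpinb8 was higher with CHIR99021, and Serpinb1a and Serpinb1c were lower. The median difference was 0.05 against 0.10 over all features, of which 60.8% were called (36.2% higher and 24.6% lower with CHIR99021). The split depended on the scaling: with quantile normalization 5 of the 7 were called, 1 higher and 4 lower, and with spike-in scaling 3 were called, 0 higher and 3 lower.

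The other clade B genes on the array included 17 of 18 listed symbols, of which 5 passed the filter on dim probes. After CHIR99021, 3 of the 5 rose and 0 fell, with a median log2 difference of 0.54, and after AICAR 4 rose and 1 fell, with a median of 0.72. The shares over all features were 30.4% higher and 20.5% lower, and 30.9% higher and 29.6% lower. The list was fixed with earlier results of these arrays known. Genes named from this and the later lists were mostly the called ones with the largest differences. An adjusted p under 0.05 followed from that choice and is given only as a value of the fit. Serpinb6d rose by 1.40 ± 0.07 with CHIR99021 (limma, Benjamini-Hochberg adjusted p = 1.94e-06) and by 1.60 ± 0.07 with AICAR (adjusted p = 7.33e-07). Its arrays read between -1.07 and -0.95 in DMSO, at 0.30, 0.42 and 0.47 with CHIR99021, and 0.65, 0.52 and 0.62 with AICAR, with no overlap between groups. Serpinb6e rose by 1.93 ± 0.10 (adjusted p = 3.2e-06) and 1.84 ± 0.10 (adjusted p = 2.61e-06), from -3.33, -3.24 and -3.56 in DMSO to between -1.61 and -1.34 on the 6 treated arrays. With Serpinb6a and Serpinb6c, 4 of the 5 Serpinb6 copies were called higher after each treatment, where 30.4% and 30.9% of all features were. The Serpinb6a and Serpinb6c calls after CHIR99021 were lost with spike-in scaling, and the Serpinb6a call after AICAR in 4 alternatives. With normexp the Serpinb6e differences were 1.22 and 1.14.

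Serpinb3c, of the chromosome 1 group and related to human squamous cell carcinoma antigens, rose less, by 0.33 ± 0.06 with CHIR99021 (adjusted p = 0.00205, not called with spike-in scaling) and 0.44 ± 0.06 with AICAR (adjusted p = 0.000314), and by 0.20 in both with normexp. The Serpinb9 copies were dim and did not move together. Serpinb9f fell by 1.59 ± 0.42 with AICAR (adjusted p = 0.0111), from -4.42, -4.40 and -4.19 in DMSO to -6.39, -6.59 and -4.80, and only 1 of the AICAR arrays was well above background. With normexp the AICAR difference was -0.33, still called. With CHIR99021 it was 0.05 ± 0.42. Serpinb9e rose with AICAR by 0.72 ± 0.24 (adjusted p = 0.0308), although its AICAR and DMSO arrays overlapped. That call was lost without DMSO replicate 1 (0.76), DMSO replicate 2 (0.50), AICAR replicate 1 (0.59) or AICAR replicate 2 (0.65), and with normexp the difference was 0.17. The CHIR99021 difference (0.54 ± 0.24) became a call without DMSO replicate 3 (0.72) and with normexp (0.22). A further Serpinb9e probe, too dim to be tested, pointed the other way, with DMSO arrays at -6.10, -5.87 and -5.75 and AICAR arrays at -8.24, -8.39 and -6.71. The remaining 12 genes, among them Serpinb2, Serpinb3a, Serpinb7, Serpinb10, Serpinb12 and Serpinb13, were below the filter. Of the 27 Serpinb genes on the array, 13 were well above background on none of the 9 arrays. Serpinb9g, 1 of the 12, was well above background on 2 DMSO arrays and on no treated array. It read -6.40, -5.95 and -5.92 in DMSO, -8.13, -6.49 and -7.65 with CHIR99021, and -8.32, -7.83 and -8.15 with AICAR. Its DMSO arrays lay above all treated arrays, too close to background for a fold. Lower without overlap was true of 25.8% of all features after CHIR99021 and 32.8% after AICAR.

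By position, the Serpinb genes form a run of 16 on chromosome 13 and a run of 12 on chromosome 1, in the gene order of GRCm38.p6. Of the 15 on chromosome 13 with a probe, 9 were tested, with 6 called higher and 0 lower after CHIR99021 and 7 higher and 1 lower after AICAR. Over all features 30.4% were called higher and 20.5% lower after CHIR99021, and 30.9% and 29.6% after AICAR. Many of these genes were chosen with the results known, and the Serpinb9e call after AICAR was lost in 7 of 18 alternatives. The 6 genes called higher after CHIR99021 lay toward both ends of that run: Serpinb1a and Serpinb1c follow Wrnip1 at one end, and Serpinb6d, Serpinb6e, Serpinb6c and Serpinb6a close the other. The Serpinb9 copies lie between, among them Serpinb9e and Serpinb9f, called in opposite directions after AICAR. On chromosome 1, 3 of 12 were tested and 2 called higher after each treatment, and Serpinb5 and Serpinb8 mark the ends. The order was compared with the calls as a description, without a test.

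The genes next to the runs did not follow a single pattern. Wrnip1, a DNA repair ATPase next to Serpinb1a, differed by 0.05 ± 0.04 with CHIR99021 (adjusted p = 0.365) and 0.08 ± 0.04 with AICAR (adjusted p = 0.146). Beyond Serpinb6a, 1110046J04Rik rose with AICAR by 1.27 ± 0.13 (adjusted p = 7.38e-05). Nqo2, a quinone reductase, fell by 0.43 ± 0.07 with CHIR99021 (difference -0.43, adjusted p = 0.00172). Ripk1, a kinase of cell death and inflammation signalling, rose with CHIR99021 by 0.68 ± 0.07 (adjusted p = 0.000121) and fell by 0.93 ± 0.07 with AICAR (adjusted p = 1.35e-05). Bphl, a hydrolase, rose with AICAR by 0.57 ± 0.08 (adjusted p = 0.000325). At the Serpinb5 end of the chromosome 1 run, Kdsr, a sphingolipid enzyme, rose by 0.16 ± 0.04 with CHIR99021 (adjusted p = 0.0118), and Vps4b, an ATPase of endosomal sorting, fell by 0.36 ± 0.06 with AICAR (adjusted p = 0.0015).

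**Figure D2:**
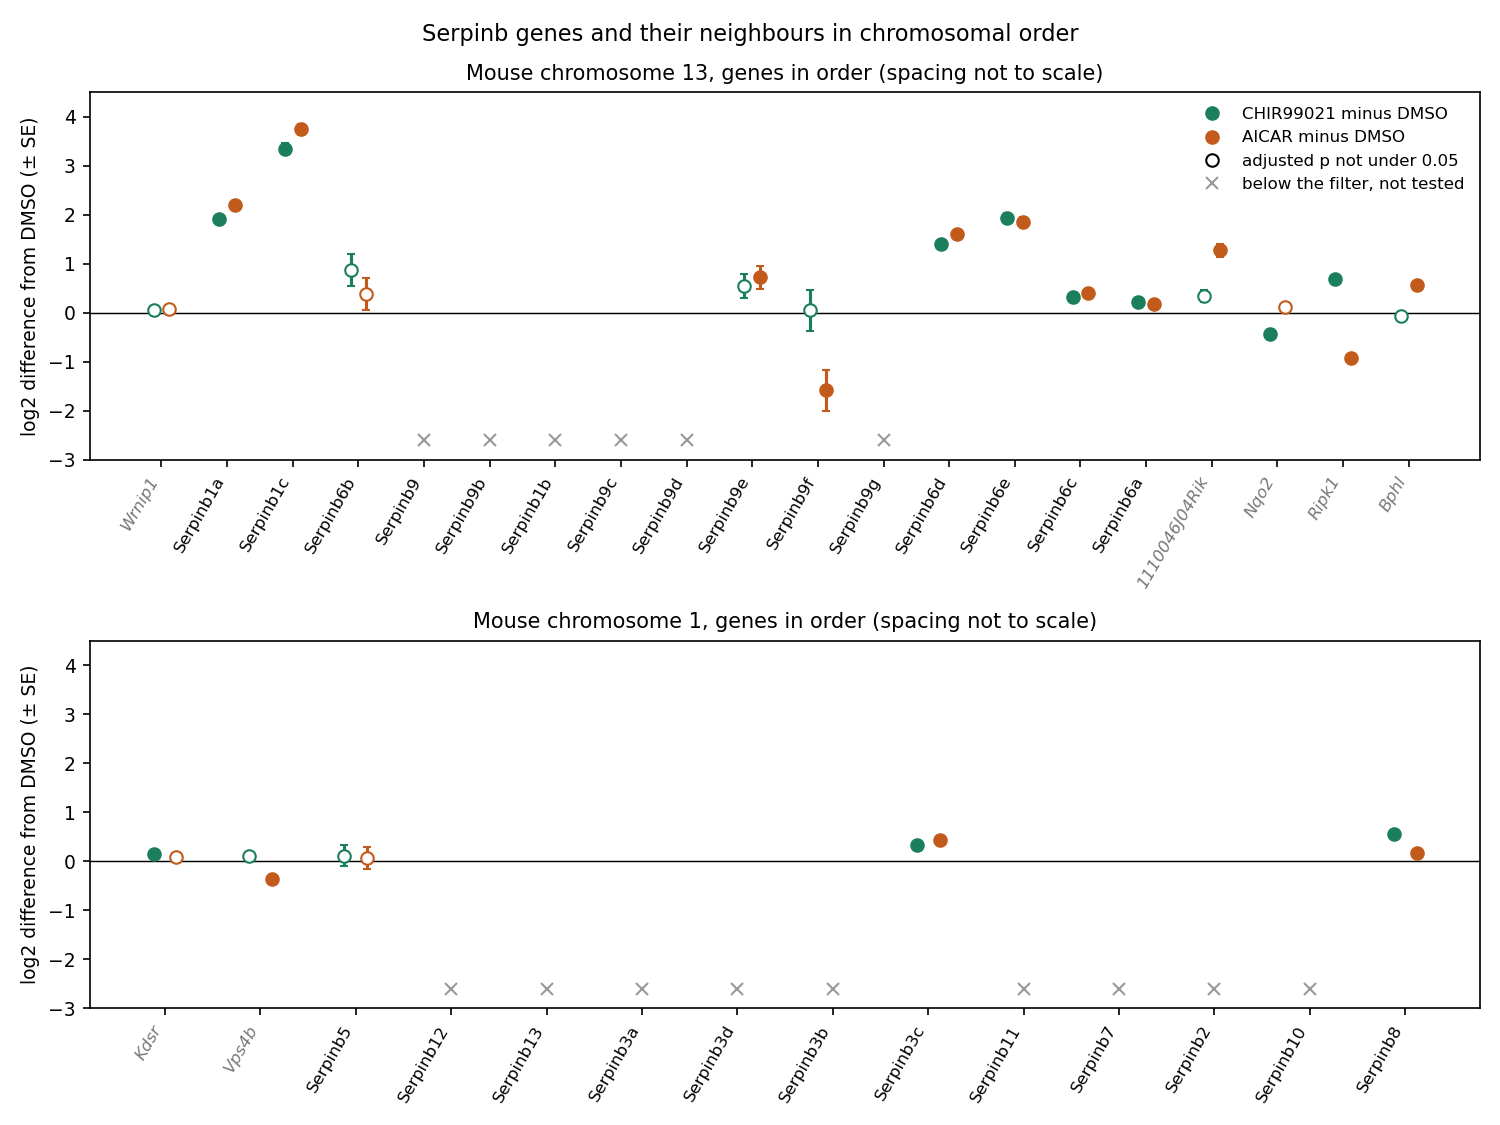
Log2 difference from DMSO with its standard error for each gene of the Serpinb runs of chromosomes 13 and 1 and their neighbours, in gene order with spacing not to scale. Filled points were called, open points were not, and crosses were too dim to be tested; Serpinb1c is drawn at its fitted value although DMSO gives only a bound. Serpinb1a and Serpinb1c at the left of chromosome 13 and Serpinb6d and Serpinb6e toward its right stand above 1. Neighbours lie near or on both sides of 0, and 1 of them, 1110046J04Rik, also stands above 1 with AICAR (1.27).

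Serpins of other clades, which are mostly secreted, showed no common direction. Of 37 listed, 33 were on the array and 20 tested. After CHIR99021 6 rose and 6 fell (median 0.15), and after AICAR 5 rose and 6 fell (median 0.05). Over all features, 30.4% were called higher and 20.5% lower after CHIR99021 (median 0.07), and 30.9% and 29.6% after AICAR (median 0.03). Serpinf1, which encodes the antiangiogenic factor PEDF, fell by 3.25 ± 0.06 with CHIR99021 (adjusted p = 3.63e-08) and by 1.23 ± 0.06 with AICAR (adjusted p = 1.65e-06). Serping1, the C1 inhibitor of complement, fell by 0.93 ± 0.06 with CHIR99021 (adjusted p = 9.33e-06). Serpina3f rose by 1.13 ± 0.19 (adjusted p = 0.00157) and 1.39 ± 0.19 (adjusted p = 0.000369), with 1 DMSO array well above background. Serpinc1, or antithrombin, fell by 1.54 ± 0.15 with AICAR (adjusted p = 5.01e-05), where 1 of the 3 arrays was well above background. With normexp the Serpina3f differences were 0.32 and 0.33 and that of Serpinc1 with AICAR -0.34, all still called.

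Serine proteases, the usual targets of serpins, were tested for 15 of 22 listed genes. After CHIR99021 5 rose, Tmprss2 among them, and 2 fell (median 0.01), and after AICAR 7 rose and 0 fell (median 0.36). The shares over all features were 30.4% higher and 20.5% lower (median 0.07), and 30.9% higher and 29.6% lower (median 0.03). Ctsg, encoding the cathepsin G that Serpinb1 and Serpinb6 proteins inhibit, rose by 1.21 ± 0.30 with AICAR (adjusted p = 0.00801), and Prtn3, encoding proteinase 3, by 1.14 ± 0.16 (adjusted p = 0.000521). Plat, the tissue plasminogen activator, rose by 1.15 ± 0.13 with AICAR (adjusted p = 0.000159). With normexp these AICAR differences were 0.38 for Ctsg, 0.39 for Prtn3 and 0.37 for Plat, and stayed called. With CHIR99021, Gzmm, a granzyme, fell by 1.29 ± 0.06 (adjusted p = 2.24e-06) and Hpn, the membrane protease hepsin, fell by 1.27 ± 0.04 (adjusted p = 2.62e-07). Tmprss2, a membrane protease, was well above background in the CHIR99021 arrays alone and at least 5.70-fold higher there than in DMSO. It passed the filter on dim probes through those arrays alone, so that it had to differ, and no p is given.

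Lysosomal cathepsins and other cysteine proteases, which some clade B serpins also inhibit, moved both ways. Of 11 tested of 14 listed, 4 rose and 5 fell after CHIR99021 (median -0.22), and 3 rose and 4 fell after AICAR (median -0.12). Over all features the shares were 30.4% higher and 20.5% lower (median 0.07), and 30.9% higher and 29.6% lower (median 0.03). Ctsc, the dipeptidyl peptidase that activates granule serine proteases, rose by 2.71 ± 0.08 with CHIR99021 (adjusted p = 2.12e-07) and 1.37 ± 0.08 with AICAR (adjusted p = 3.41e-06). Ctsb rose by 0.94 ± 0.05 with CHIR99021 (adjusted p = 2.38e-06). Ctsk fell by 1.65 ± 0.18 (adjusted p = 9.95e-05) and Ctsw by 1.18 ± 0.09 (adjusted p = 1.55e-05) with AICAR, and with normexp the Ctsk difference was -0.39, still called. Ctss was at least 1.35-fold lower with CHIR99021 than in DMSO, a call lost with normexp. It passed the filter on dim probes through its DMSO and AICAR arrays alone, and no p is given.

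Inhibitors of other families (cystatins, Kunitz-type inhibitors, Slpi and the TIMPs) were tested for 11 of 13 listed genes. After CHIR99021 3 rose and 5 fell (median -0.30), and after AICAR 9 rose and 1 fell (median 0.56, or 0.41 with genes that have only a bound set at it). Of all features, 30.4% were higher and 20.5% lower after CHIR99021 (median 0.07), and 30.9% and 29.6% after AICAR (median 0.03). Csta2, an intracellular cystatin, fell by 1.91 ± 0.06 with CHIR99021 (adjusted p = 2.62e-07) and by 1.27 ± 0.06 with AICAR (adjusted p = 1.14e-06). Timp3, an inhibitor of matrix metalloproteases, fell by 1.38 ± 0.08 with CHIR99021 (adjusted p = 6.57e-06) and rose by 1.19 ± 0.08 with AICAR (adjusted p = 8.87e-06). With normexp the Csta2 differences were -1.01 and -0.78 and that of Timp3 with CHIR99021 -0.88, all still called. Timp2 fell by 0.55 ± 0.07 with CHIR99021 (adjusted p = 0.000307). Slpi, an inhibitor of leukocyte elastase, was at least 1.32-fold higher with AICAR than in DMSO. It was well above background in the AICAR arrays alone, so that it had to differ to be tested, and it is 1 of the 9 that count as higher.

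**Figure D3:**
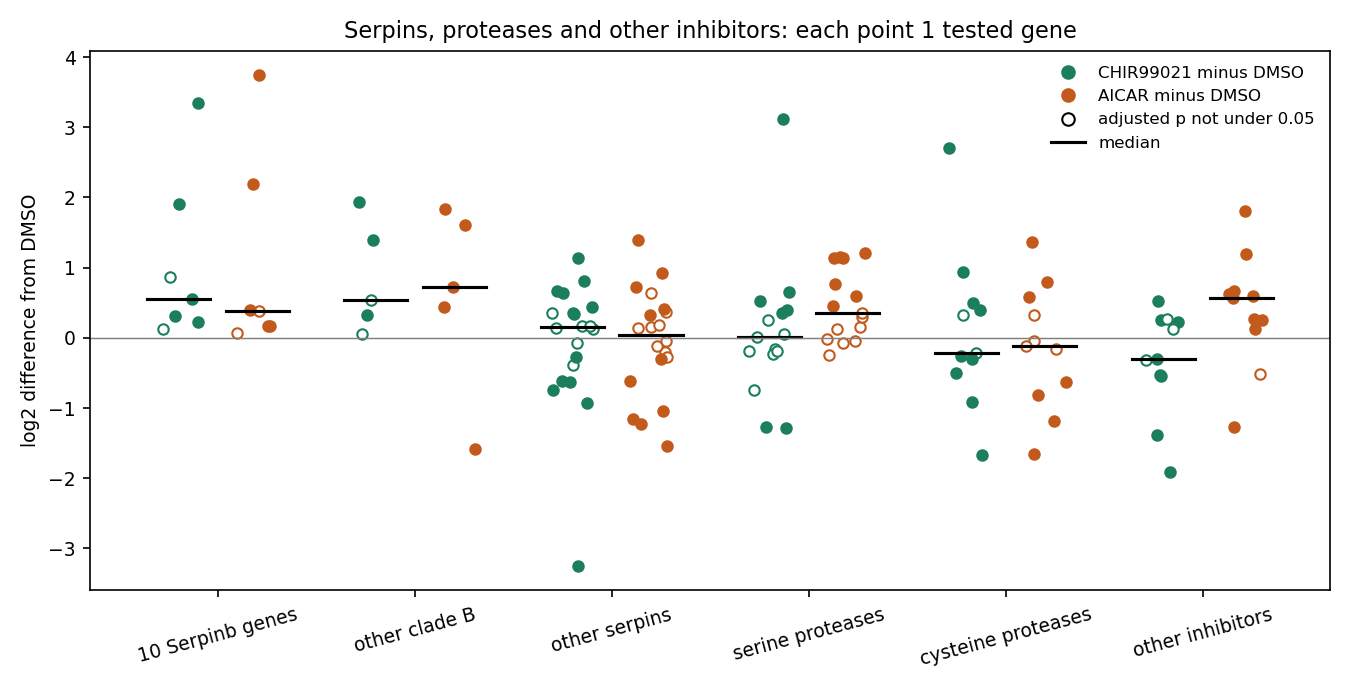
Log2 difference from DMSO of each tested gene in 6 lists, with CHIR99021 and AICAR side by side, filled points called, open points not, and a bar at the median; genes with only a bound are drawn at their fitted value. The 10 Serpinb genes (7 tested, medians 0.55 and 0.38) and the other clade B genes (medians 0.54 and 0.72) lie mostly above 0, while serpins of other clades spread to both sides.

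For the 3 tested genes with the widest range of group means, the features most like them over the 9 arrays were sought among 16033 with a symbol outside the Serpinb family. For Serpinb1c these were Trnp1 (r = 0.9965) and Lrrc34 (r = 0.9964), and for Serpinb1a Lrrc34 and Pdgfrb (r = 0.9979 each). Such likeness was common, since 837 features had r above 0.9 with Serpinb1c and 868 with Serpinb1a. For Serpinb6b it was rare, with 8 such features, led by Gjb5 (r = 0.9343) and Zfp526 (r = 0.9326). The arrays of a group share treatment and slide, so for Serpinb1a and Serpinb1c these values describe 3 group levels more than 9 separate points. The Serpinb6b groups overlapped, so its values also reflect differences between the arrays of a group on a dim probe. All the named features were picked as the highest among the 16033 candidates.

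All 8 markers of embryonic stem cells (Pou5f1, Sox2, Nanog, Zfp42, Esrrb, Dppa5a, Tdgf1 and Fbxo15) were well above background on all 9 arrays. Their summed processed signal was 310000 to 321000 units in DMSO, 307000 to 318000 with CHIR99021 and 319000 to 347000 with AICAR. Most of that sum was Dppa5a (179000 to 212000 units), which was not called after either treatment. Of the 8 markers, 3 were called higher and 1 lower after CHIR99021 (median 0.15). After AICAR 4 were called higher and 1 lower (median 0.32). For these and the marker lists below, the shares over all features were 30.4% higher and 20.5% lower after CHIR99021 (median 0.07). After AICAR they were 30.9% and 29.6% (median 0.03). Of 10 keratinocyte markers, 6 were well above background on all arrays of each group, and their sum went from 5670 to 6200 in DMSO to 7250 to 7680 with CHIR99021 and 8600 to 10300 with AICAR, with Krt1, Dsg3 and Ivl well above background on no array. Perp carried most of the AICAR rise, at 2560 to 2680 units in DMSO and 5700 to 7030 with AICAR. Of the 6 keratinocyte markers tested, 5 were called higher and 0 lower after CHIR99021 (median 0.57). After AICAR 2 were called higher and 0 lower (median 0.37). Leukocyte markers, of which 9 were on the array, summed to 10300 to 10700, 10800 to 11200 and 11100 to 13800 in the same order, with 5, 4 and 6 of the 9 well above background on all arrays of the group and Lyz2 and Spi1 on none. Most of that sum was Itgam (7070 to 9890 units), and of the 6 leukocyte markers tested 1 was called higher and 3 lower after CHIR99021 (median -0.16), and 3 higher and 1 lower after AICAR (median 0.26). Fibroblast markers summed to 1300 to 1410, 1340 to 1440 and 1920 to 2510, with 7, 6 and 5 of 10 well above background on all arrays of the group and Lum, Postn and Twist2 on none. Thy1 (729 to 796 units in DMSO, 1230 to 1690 with AICAR) and Pdgfrb carried the AICAR sum, and of the 7 fibroblast markers tested 2 were higher and 2 lower after CHIR99021 (median -0.20) and 3 higher and 3 lower after AICAR (median -0.19). Trophoblast markers summed to 5730 to 6490, 7870 to 8790 and 6160 to 6920, with 6, 6 and 5 of 9 well above background on all arrays of the group and Tpbpa on none. Hand1 and Elf5 were well above background on no DMSO and no CHIR99021 array, and Cdx2 on no AICAR array. Gcm1 was the largest part of the trophoblast sum (3070 to 4880 units over the 9 arrays) and was not called after CHIR99021 (-0.15). Cdx2 carried most of the CHIR99021 rise, at 10.6 to 18.4 units in DMSO and 1820 to 2250 with CHIR99021. Of the 6 trophoblast markers tested, 4 were higher and 0 lower after CHIR99021 (median 0.55), and 4 higher and 2 lower after AICAR (median 0.51). The part of such cells in the Serpinb differences was not tested.

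Over all features, between 62.8% and 67.2% of the spots of an array were well above background. Arrays correlated at 0.995 to 0.997 within groups and 0.973 to 0.983 between them, and no array stood apart. The share of higher calls depended on the scaling. With spike-in scaling 4678 features were called higher and 5574 lower after CHIR99021 (8180 and 5516 with the percentile), 9834 higher and 4672 lower after AICAR (8310 and 7942), and 4112 higher and 8888 lower for CHIR99021 against AICAR (9722 and 6606). It moved the median difference over all features from 0.07 to -0.02, from 0.03 to 0.17 and from 0.10 to -0.13. Serpinb1a was 1.82 and 2.33 above DMSO with spike-in scaling.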

How the data were processed

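Total RNA of J1 cells was hybridised to 9 single-colour Agilent arrays of 3 groups. The deposited scanner tables hold intensity values (processed, median and background signals) that the authors extracted with Agilent Feature Extraction (version 10.7 per the submitters' processing notes, 10.7.3.1 per the file headers). The authors also deposited a matrix of log2 normalized values, which matched the scanner values (r of 0.99962 to 0.99999 per array). In the matrix each array had a 75th percentile of 8.9 and a median of 5.18; it is log2 and not centred per gene, and how it was normalized is not stated. Genes carry no coordinates apart from the RefSeq windows, since the array design used an older build.

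From these, log2 of the processed signal minus the array's 75th percentile over 59305 non-control spots was computed, dropping outlier spots and averaging spots of a probe. Probes well above background (in more than 50% of their spots) on at least 3 of 9 arrays were kept (37742 of 55681), and the brightest probe stood for a gene. Accessions gave a symbol to 27235 probes through RefSeq names and none to 28446. The 26866 features were fitted with limma 3.58.1 in R 4.3.3 (lmFit and eBayes, 3 group means, all 9 arrays) with Benjamini-Hochberg adjustment over all features and a threshold of 0.05. The procedure was tested on simulated data.

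The genes and lists were chosen with earlier results of these data known. Named genes were the 10 Serpinb genes, up to 3 called genes with the largest difference per list and comparison with DMSO, every other clade B gene well above background on all arrays of a group, up to 4 neighbours on each side of a Serpinb run, 2 likeness genes for each of 3 Serpinb genes and the stem cell markers. Genes singled out beside these were chosen after their values were seen. Alternatives were normexp (offset 50), quantile, spike-in and deposited-matrix values, other filters and probe rules, a fit on the compared groups alone, a replicate block and leaving out each array. Normexp used median spot signals, since mean signals were not used here.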

Additional observations from a re-analysis of the deposited data

How the results depend on the processing

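Members of the Serpinb set called after CHIR99021 numbered 5, but 3 with spike-in scaling, and 5 to 6 when 1 array was left out. After AICAR they numbered 5, but 3 with normexp, 3 with the replicate block, and 3 to 5 when 1 array was left out (3 without AICAR replicate 2). For CHIR99021 against AICAR they numbered 3, but 5 with quantile normalization, 5 with the deposited matrix and 5 with no filter (more genes tested), and 2 to 3 when 1 array was left out. The cause of these changes was not tested. For CHIR99021 against AICAR, Serpinb6a reversed to -0.18 with quantile normalization and -0.18 with the deposited matrix, and Ctsb to -0.08 with quantile normalization, -0.08 with spike-in scaling and -0.09 with the deposited matrix. The median range of the group means of the tested genes was 0.55, and 0.38 with normexp. Leaving out 1 array gave 11745 to 14027, 14569 to 16158 and 14934 to 16040 features called in the 3 comparisons. Serpinb1a (1.75 to 1.91 and 2.00 to 2.33), Serpinb6d (1.28 to 1.45 and 1.48 to 1.75) and Serpinb6e (1.22 to 2.00 and 1.14 to 1.99) stayed called against DMSO in all 19 alternatives run.

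Same-numbered arrays of different groups deviated no more alike than others (r of -0.06 to 0.09 against -0.13 to 0.11). Of the 9 arrays, 3 were best with their own number. These values gave no sign that the numbers pair the arrays, but with 3 arrays a group they cannot exclude it. The replicate block gave 12711, 15460 and 15682 features called in the 3 comparisons, and 5, 3 and 3 of the 7 tested Serpinb genes. The slide as a block could not be fitted, since each slide holds 1 group. Signals near background limit Serpinb1b, Serpinb1c, Serpinb6b, Serpinb9 and Serpinb9b, whose values rest on 1 spot per array.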

Other observations

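Compared with each other rather than with DMSO, the treatments differed in the other protease inhibitors. With CHIR99021 relative to AICAR, 0 of the 11 tested cystatins, Kunitz-type inhibitors, Slpi and TIMPs were higher and 7 lower (limma, adjusted p under 0.05), with a median log2 difference of -0.43, or -0.40 with genes that have only a bound set at it, against 36.2% higher and 24.6% lower of all 26866 features and a median of 0.10. Slpi, 1 of the 7, was tested only through its AICAR arrays. Of the 15 tested serine proteases 3 were higher and 9 lower (median -0.50), and of the 11 tested cysteine proteases 6 were higher and 3 lower (median 0.15).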
